A study of Mus musculus with 4 samples.

Results

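The nuclear pore and nuclear transport genes were taken from the mouse annotation by symbol: every protein-coding gene whose symbol starts with Nup and a digit, Ipo, Xpo or Kpn, and in addition Tnpo1, Tnpo2, Tnpo3, Cse1l, Ran, Ranbp1, Rangap1 and Rcc1. The rule gave 50 annotation entries with 49 symbols, of 22380 protein-coding genes in all, since Ipo11 has a second, shorter entry inside the main one. Of the 50 members, 21 encode nucleoporins and 29 encode transport factors. The rule used no measured value.

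Peak lists of 2 ChIP-Seq libraries from E14 mouse embryonic stem cells (ESCs) were compared, in which sequenced fragments of immunoprecipitated chromatin pile up where a protein sits on DNA. For Bio-Myc, chromatin came from 1 stable E14 clone that expressed Myc with an N-terminal biotin tag from a vector with the EF1α promoter, in ESCs that carry the biotin ligase BirA, and was pulled down on streptavidin beads. For Max, the chromatin of parental wild type E14 cells was pulled down with an antibody against endogenous Max. The controls were a mock ChIP on streptavidin beads, which the sample labels place in parental wild type cells and the methods in BirA cells without tagged Myc, and an IgG ChIP of parental wild type cells, and their own peaks were not analysed here. The tagged Myc was thus expressed in addition to endogenous Myc, from a foreign promoter, and the Myc and Max lists came from different cells. Each ChIP was 1 library with no replicate, so no difference between the lists was tested. The Bio-Myc list held 3962 peaks and the Max list 11570. Read depth is unknown, because the lists give no read counts, and the number of peaks past a fixed p-value depends on it. The lists hold no expression values, so the identity of the cells could not be checked against marker genes.

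The nuclear pore complex is a ring-shaped channel of nucleoporins through which all large cargo enters and leaves the nucleus. Importins and exportins carry the cargo, and the small GTPase Ran, charged with GTP by Rcc1 in the nucleus and discharged with the help of Rangap1 in the cytoplasm, gives transport its direction. Myc binds DNA as a dimer with Max, with the E-Box CACGTG as its preferred sequence, and is known for binding the promoters of many genes of growth and protein synthesis.

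To show E-Boxes under strong peaks, the E-Box nearest to the centre of the Bio-Myc peak is printed for 8 genes. Genes were taken from the 10 members with the highest Bio-Myc scores and from the core transport cycle. They were printed if their overlapping Bio-Myc and Max peaks hold a CACGTG. Capitals mark the E-Box, with 12 bases of genome on each side, read 5′ to 3′ on the strand of the gene (mm9).
Ranbp1, chr16:18248564-18248593, minus strand: gctatgggcggcCACGTGggcggcccgcgc
Ran, chr5:129525901-129525930, plus strand: gctcggccggccCACGTGacccgccgcccc
Xpot, chr10:121063602-121063631, minus strand: agctccagggagCACGTGcgcggtcctcct
Ipo7, chr7:117161680-117161709, plus strand: gtgggagccagcCACGTGggccgtgtccgc
Nup50, chr15:84753555-84753584, plus strand: gacggcggccgaCACGTGaccaacgtgctt
Xpo5, chr17:46340329-46340358, plus strand: gttccgggagcgCACGTGcaaattcctgcc
Kpnb1, chr11:97049932-97049961, minus strand: tggaaggtgaacCACGTGgttctcatggtc
Nup205, chr6:35128099-35128128, plus strand: ccacgggctcagCACGTGccgccctgcacc
Relative to the nearest transcription start site (TSS), with negative positions upstream, these E-Boxes lay at -49 bp for Ranbp1, -26 bp for Ran, -242 bp for both Xpot and Ipo7, -259 bp for Nup50, 537 bp for Xpo5, -749 bp for Kpnb1 and 482 bp for Nup205. The sites of Ranbp1, Xpo5 and Nup205 were in introns, and the other 5 were upstream of the gene. All lay off the middle of the Bio-Myc peak, by 68 bp in Nup50, 166 bp in Xpot and 169 bp in Ran. The distance was 182 bp in Nup205, 260 bp in Ranbp1, 269 bp in Ipo7, 459 bp in Xpo5 and 739 bp in Kpnb1. Whether these E-Boxes account for the peaks was not tested.

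A peak was assigned to each gene with an annotated TSS inside the peak or no more than 1 kb from it. Of the 50 members, 26 (52.0%, 95% Wilson interval 38.5 to 65.2) had a Bio-Myc peak, against 14.6% of all protein-coding genes. A Max peak was found at 39 (78.0%, 64.8 to 87.2), against 34.8%. Both peaks were present at 24 (48.0%, 34.8 to 61.5), against 12.7%, a Max peak alone at 15 (interval 19.1% to 43.8%), against 22.1%, and a Bio-Myc peak alone at 2 (1.10% to 13.5%), against 1.98%. The remaining 9 members (9.77% to 30.8%) had neither, against 63.2% of all protein-coding genes. For each factor, and for both, the genome-wide share thus lay below the interval of the members, whereas for a Max peak alone and a Bio-Myc peak alone it lay inside. These intervals cover counting error only, and genes are not replicates of a condition.

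**Figure D1:**
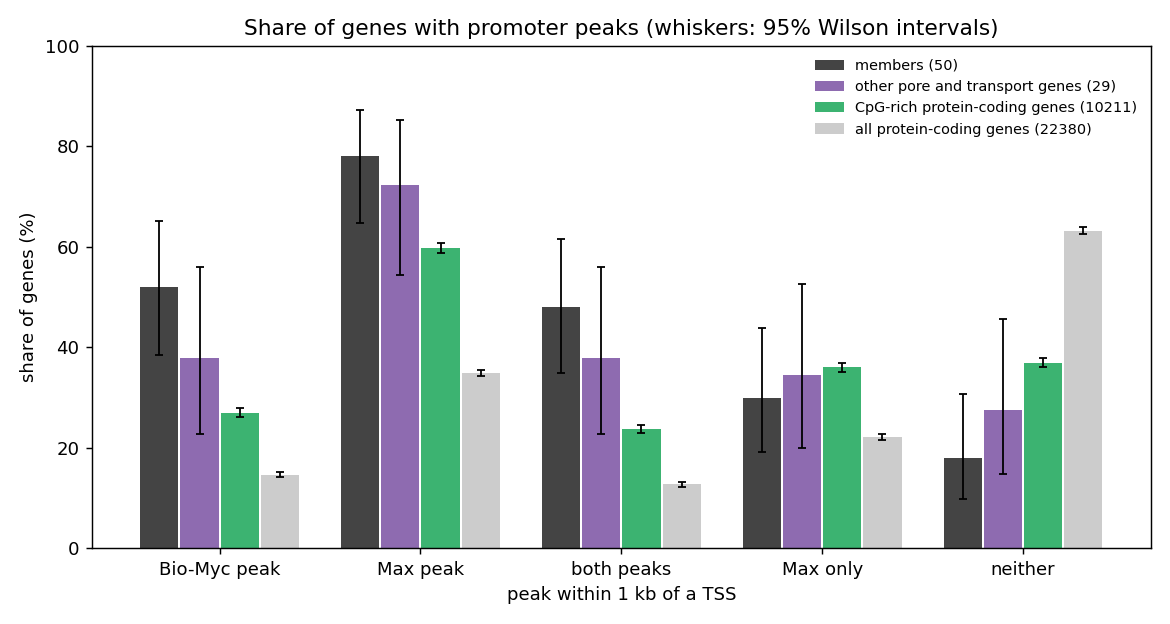
Share of genes (y axis, percent) with each combination of peaks within 1 kb of a TSS (x axis), for the 50 members, 29 further pore and transport genes, the CpG-rich protein-coding genes and all protein-coding genes, with whiskers for 95% Wilson intervals. The members were at 52.0% for Bio-Myc and 78.0% for Max, above the CpG-rich genes at 27.0% and 59.8%.

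Promoters rich in CpG, which are common at genes active in all cells, made up 86.0% of the members (43 of 50) and 45.6% of protein-coding genes, where CpG-rich means an observed to expected CpG ratio of at least 0.6 within 500 bp of the outermost TSS. Among these 43, a Bio-Myc peak was present at 25 (58.1%, 43.3 to 71.6), against 27.0% of all CpG-rich genes. A Max peak was present at 36 (83.7%, 70.0 to 91.9), against 59.8%. Both shares of the CpG-rich members were thus higher than those of all genes with such promoters. Of the 7 CpG-poor members, 1 had a Bio-Myc peak (14.3%, 2.57 to 51.3), against 4.22% of all CpG-poor genes, and 3 had a Max peak (42.9%, 15.8 to 75), against 13.8%. The CpG ratio was taken at the outermost TSS only. Both peaks of Nup35 and the Max peak of Ipo4, counted here, lay at other TSSs, where CpG was not measured. The second Ipo11 entry is also among these CpG-poor members. Among the 39 members with a Max peak, 24 also had a Bio-Myc peak (61.5%, 45.9 to 75.1), against 36.4%.

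The strength of a peak is given by its score, 10 times the negative log10 of the p-value of the peak caller, so that the limit of 1e-08 equals a score of 80. Scores of the lists are not on a common scale, and each peak was therefore also ranked within its own list, where the percentile is the percentage of peaks with the same or a lower score. Members with a Bio-Myc peak had a median Bio-Myc score of 226 (range 87.2 to 1461) and a median percentile of 80.4, against 56.9 for all protein-coding genes with such a peak. The Max scores had a median of 305 (83.2 to 1298) and a median percentile of 79.3, against 60.9. Peaks in the top 10% of the Bio-Myc list were found at 7 of the 26 (26.9%, 13.7 to 46.1), against 13.3%, namely Ranbp1, Ran, Xpot, Ipo7, Nup50, Nup85 and Xpo5. The genome-wide share lay just below this interval. In the Max list, 11 of 39 members were in the top 10% (28.2%, 16.5 to 43.8), against 13.8%.

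**Figure D2:**
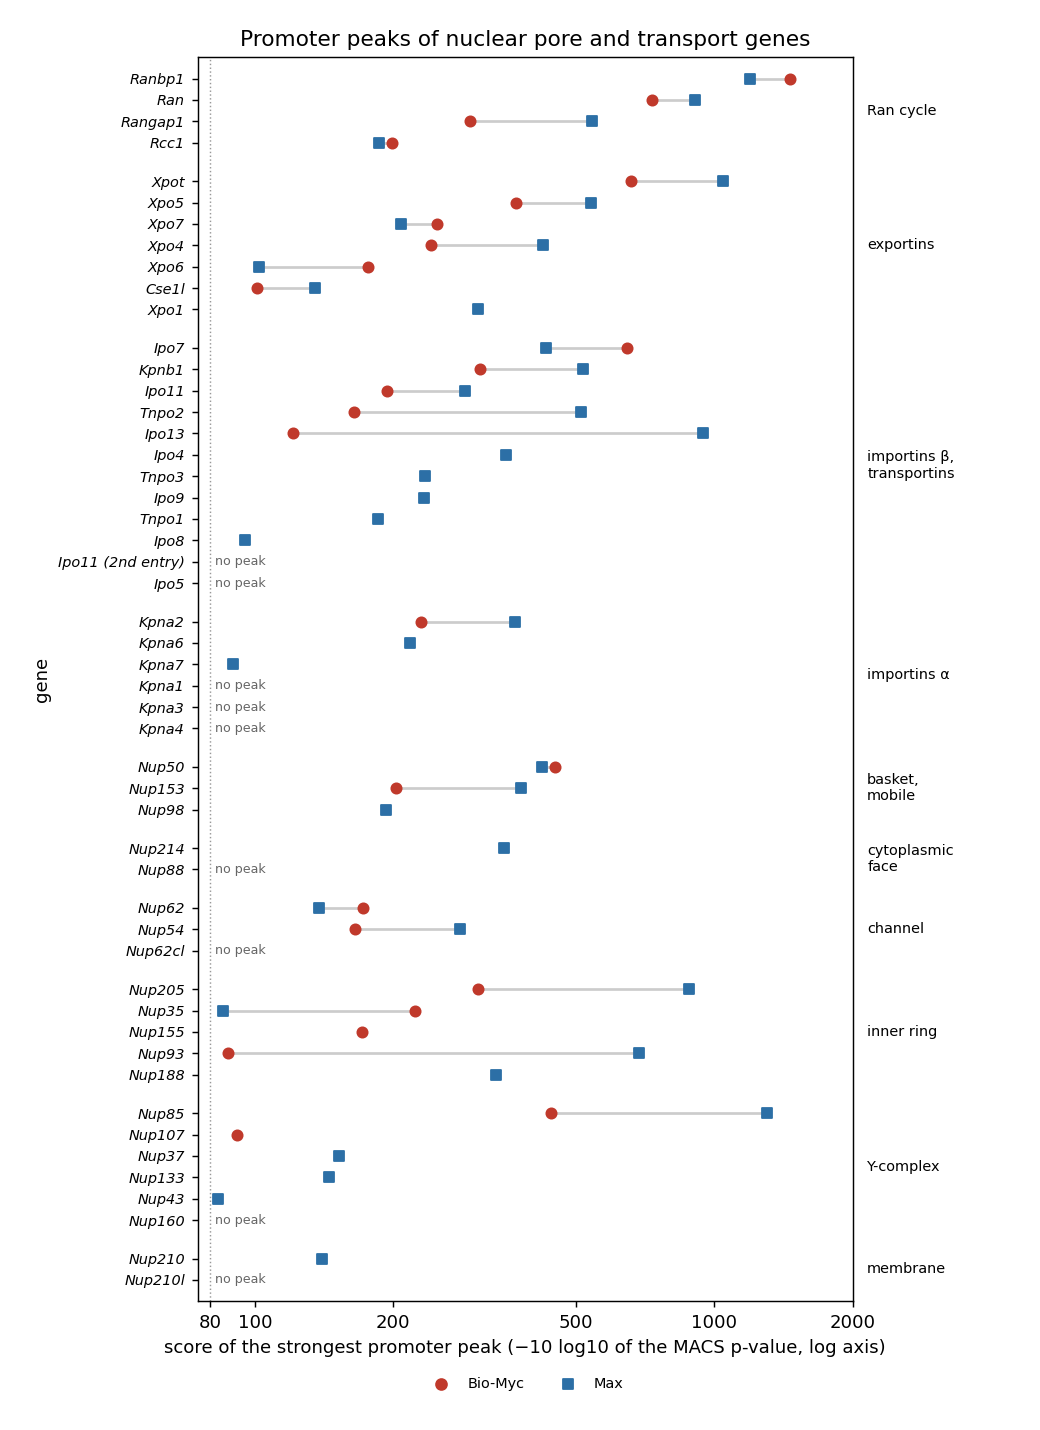
Score of the strongest promoter peak (x axis, log scale) of each of the 50 members (y axis), grouped by role, with a red circle for Bio-Myc, a blue square for Max and a dotted line at the lowest score of the lists. All Ran cycle genes had both peaks, while Kpna1, Kpna3 and Kpna4 had none.

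The Ran cycle was the role with a peak of both factors at every gene, 4 of 4 (interval 51.0% to 100%). Of all protein-coding genes, 12.7% had both. The strongest Bio-Myc peak of all members was at Ranbp1, which helps to release Ran-GTP from transport receptors (chromosome 16, 18239877 to 18248825), with a Bio-Myc score of 1461, at percentile 99.9, and a Max score of 1194, at percentile 99.2. Ran itself (chromosome 5, 129525944 to 129530198) had a Bio-Myc score of 730 and a Max score of 908, at percentiles 98.8 and 98.1. Ran and Ranbp1, the GTPase and its binding protein, were therefore near the top of both lists. Their peaks each held a pair of E-Boxes. Rangap1, which activates GTP hydrolysis by Ran (chromosome 15, 81534678 to 81560349), had scores of 294 for Bio-Myc and 540 for Max. Rcc1, the nucleotide exchange factor that sits on chromatin (chromosome 4, 131887834 to 131909520), had scores of 199 and 186, the lowest of the role in each list. The peaks of Rangap1 and Rcc1 held no CACGTG.

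The exportins, which carry cargo out of the nucleus, had a Bio-Myc peak at 6 of 7 genes (interval 48.7% to 97.4%). A Max peak was present at all 7 (64.6% to 100%). The shares over all protein-coding genes were 14.6% and 34.8%. Xpot, the exportin of tRNA (chromosome 10, 121024436 to 121063372), led with a Bio-Myc score of 657 and a Max score of 1045, at percentiles 98.3 and 98.7. Xpo5, which exports microRNA precursors (chromosome 17, 46339804 to 46379248), followed with 370 and 539. The exporters of small RNAs thus held the strongest peaks of this role in both lists. Xpo7 had scores of 249 for Bio-Myc and 208 for Max, Xpo4 of 241 and 424, and Xpo6, the exportin of actin, of 176 and 102. Cse1l, which returns importin α to the cytoplasm (chromosome 2, 166731540 to 166771889), had a weak peak in both lists, with scores of 101 and 135. Xpo1, the main exportin of proteins with a nuclear export signal (chromosome 11, 23156041 to 23198249), was the exception. It had a Max peak with a score of 305, at percentile 79.3, while the nearest Bio-Myc peak lay 188 kb upstream.

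Importins of the β family and transportins, which bind cargo and pass through the pore, made up 12 entries. Of these, 5 had both peaks, 5 had a Max peak alone and 2 had neither. The intervals were 19.3% to 68.0% for both and for Max alone, and 4.70% to 44.8% for neither. Over all protein-coding genes the shares were 12.7%, 22.1% and 63.2%. Ipo7, an importer of ribosomal proteins (chromosome 7, 117161939 to 117198628), had the highest Bio-Myc score of the role, 646, at percentile 98.2, with a Max score of 430. Kpnb1, importin β itself (chromosome 11, 97021028 to 97049195), had scores of 309 and 518. The order of the genes was not the same in the Max list. There Ipo13, which works in both directions, was the first of the role, with a Max score of 943, at percentile 98.3, although its Bio-Myc score was 121, at percentile 44.9. Tnpo2 had scores of 164 and 512, and Ipo11 of 194 and 286. The genes with a Max peak alone were Ipo4, an importer of histones, with a score of 352, Tnpo3, the importer of SR splicing factors, with 234, Ipo9 with 233, Tnpo1, the transportin of many RNA-binding proteins, with 185, and Ipo8 with 95.2. Of these, only Ipo4 exceeded the lowest Max score among the genes of the role with both peaks, 286 at Ipo11. Ipo5 had neither peak, with the nearest Bio-Myc peak 467 kb and the nearest Max peak 124 kb downstream. The second Ipo11 entry likewise had none at its own TSS.

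The importins α, adaptors that recognise the nuclear localisation signal, were the transport factors with the fewest peaks. A Bio-Myc peak was present at 1 of 6 (interval 3.01% to 56.4%), against 14.6% of all protein-coding genes. A Max peak was present at 3 of 6 (18.8% to 81.2%), against 34.8%. Each genome-wide share lay inside the wide interval of this role, so fewer peaks than in all genes were not shown. Only Kpna2, the form known to be abundant in ESCs, had both peaks (chromosome 11, 106849943 to 106860855), with a Bio-Myc score of 230 and a Max score of 368. Kpna6 and Kpna7 had a Max peak alone, with scores of 217 and 89.6. Kpna1, Kpna3 and Kpna4 had neither peak, and the nearest peak of each list lay 49.2 kb (Bio-Myc) and 49.6 kb (Max) away for Kpna1, 116 kb in both lists for Kpna3, and 82 kb and 81.3 kb for Kpna4. The paralogues of this family therefore ranged from a Bio-Myc peak at percentile 81.0, at Kpna2, to no peak of either list within 116 kb, at Kpna3.

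In the nuclear basket and the mobile nucleoporins, Nup50 (chromosome 15, 84753831 to 84773385) had the highest Bio-Myc score of all nucleoporins, 450, at percentile 95.4, with a Max score of 421. Nup153, its neighbour in the basket, had scores of 203 and 379, and Nup98, which also moves between the pore and the nuclear interior, had a Max peak alone with a score of 193. Of the channel nucleoporins, Nup62 (chromosome 7, 52071458 to 52086179) had scores of 172 and 138, and Nup54 of 165 and 280. Their Bio-Myc peaks were at percentiles 68.0 and 66.1, above the median of the list. On the cytoplasmic face, Nup214 had a Max peak alone, with a score of 349, and Nup88 had neither, with the nearest Bio-Myc peak, of score 470, 12.4 kb away and the nearest Max peak 11.1 kb upstream.

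The scaffold nucleoporins build the rings of the pore. In the inner ring, Nup205 (chromosome 6, 35127445 to 35197590) had scores of 305 for Bio-Myc and 882 for Max. Nup93 (chromosome 8, 96738497 to 96838966) had the lowest Bio-Myc score of all members, 87.2, at percentile 11.3, and a Max score of 685, at percentile 95.8. Nup35 (chromosome 2, 80457393 to 80499063) was the reverse, with a Bio-Myc score of 223, at percentile 79.9, and a Max score of 85.0, at percentile 5.46. The peaks of Nup35 were at an internal TSS, and the centre of the Bio-Myc peak lay 21744 bp downstream of the outermost TSS. Nup188 had a Max peak alone, with a score of 335. Nup155 (chromosome 15, 8059313 to 8109857) had a Bio-Myc peak with a score of 171 and no Max peak, the nearest of which, with a score of 87.0, lay 9.64 kb upstream.

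In the Y-complex, Nup85 (chromosome 11, 115425748 to 115445299) stood first, with the highest Max score of all members, 1298, at percentile 99.4, and a Bio-Myc score of 441, at percentile 95.3. Nup107 (chromosome 10, 117187680 to 117229761) was the other member with a Bio-Myc peak and no Max peak. Its Bio-Myc score of 91.4 was at percentile 17.3, and the nearest Max peak lay 45.8 kb downstream. Nup37, Nup133 and Nup43 had a Max peak alone, with scores of 152, 145 and 83.2, and a Bio-Myc peak with a score of 225 lay 3.73 kb upstream of Nup43. Nup160 had neither, with a Max peak of score 159 at 1.78 kb downstream and a Bio-Myc peak at 12.3 kb. Subunits of this stable complex thus ranged from the top of both lists to no peak. Of the membrane nucleoporins, Nup210 had a Max peak alone, with a score of 140, and its paralogue Nup210l had neither, with the nearest Bio-Myc and Max peaks at 32.7 kb and 23.4 kb. Nup62cl, a relative of Nup62 on chromosome X, had neither, and its nearest peaks were 3022 kb (Bio-Myc) and 3319 kb (Max) away. In all, a Bio-Myc peak was present at 10 of 21 nucleoporins (47.6%, 28.3 to 67.6) and at 16 of 29 transport factors (55.2%, 37.5 to 71.6). These intervals overlap widely, and the share over all protein-coding genes was 14.6%.

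Chromosome 8 held 1357 of the 11570 Max peaks and 214 of the 3962 Bio-Myc peaks, and Nup93, Nup133 and Tnpo2 lie on it. Without this chromosome, the Bio-Myc list had a peak at 24 of 47 members (51.1%), against 14.5% of all protein-coding genes. The Max list had one at 36 (76.6%), against 33.5%. Whether the many Max peaks of this chromosome have a part in the high Max percentiles of Nup93 (95.8) and Tnpo2 (92.1) was not tested.

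**Figure D3:**
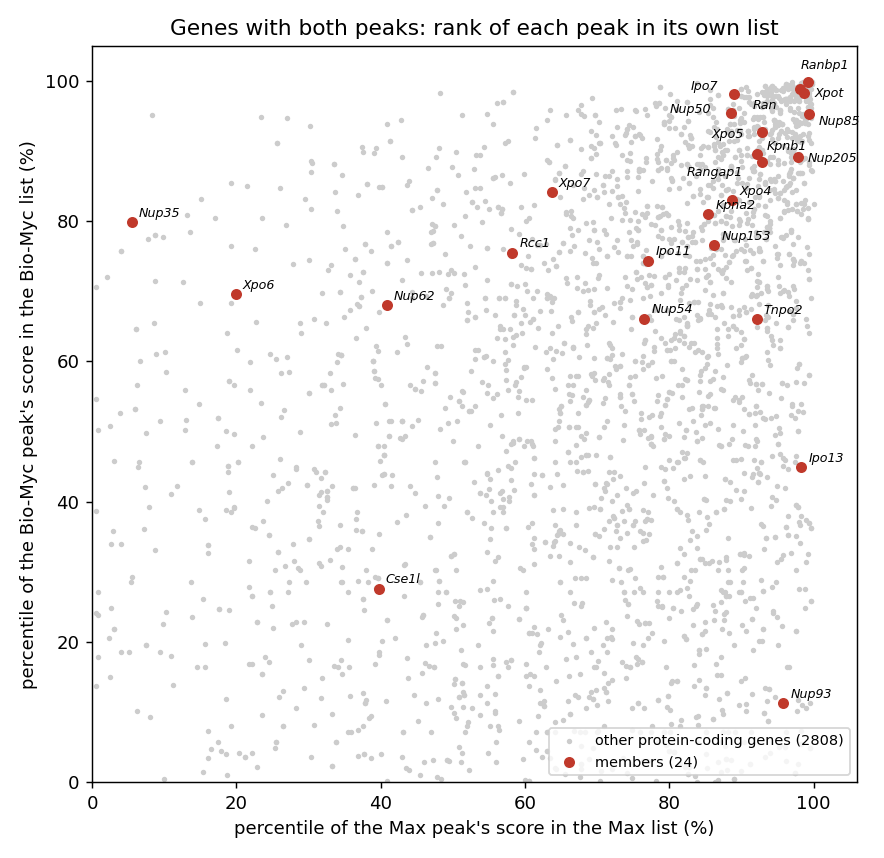
Percentile of the Bio-Myc peak (y axis) against that of the Max peak (x axis), each within its own list, for the 24 members with both peaks (red) and the 2808 other protein-coding genes with both (grey). Ranbp1, Ran and Xpot sit at 98.1 or higher on both axes. Nup93 and Ipo13 rank far higher for Max than for Bio-Myc, and Nup35 and Xpo6 are among the members that rank higher for Bio-Myc.

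Across the 24 members with both peaks, the scores of Bio-Myc and Max were related with a Spearman rho of 0.51, and across all 2832 such protein-coding genes with a rho of 0.39. The value describes peaks of the same promoters, which share base composition. Members with both peaks had a median Max score of 427, and members with a Max peak alone had a median of 193, while the same medians were 282 and 161 over all protein-coding genes. Max peaks with a Bio-Myc peak beside them thus had the higher scores, among the members and among all genes.

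In all 24 members with both peaks the strongest peaks of the lists overlapped. Overlapping peaks were the rule genome-wide too, at 12.4% of all protein-coding genes, of the 12.7% with both. The centres of the members' peaks lay a median of 140 bp apart, at most 564 bp. The strongest peak covered an annotated TSS at 25 of 26 members for Bio-Myc, the exception being Xpo7, and at 39 of 39 for Max, against 88.0% and 84.2% of all protein-coding genes with such a peak. Only peaks within 1 kb of an annotated TSS entered these counts, which favours peaks that cover a TSS, among the members and among all genes. The Bio-Myc peaks were a median of 1281 bp wide and the Max peaks 1022 bp, against 1074 and 885 bp.

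**Figure D4:**
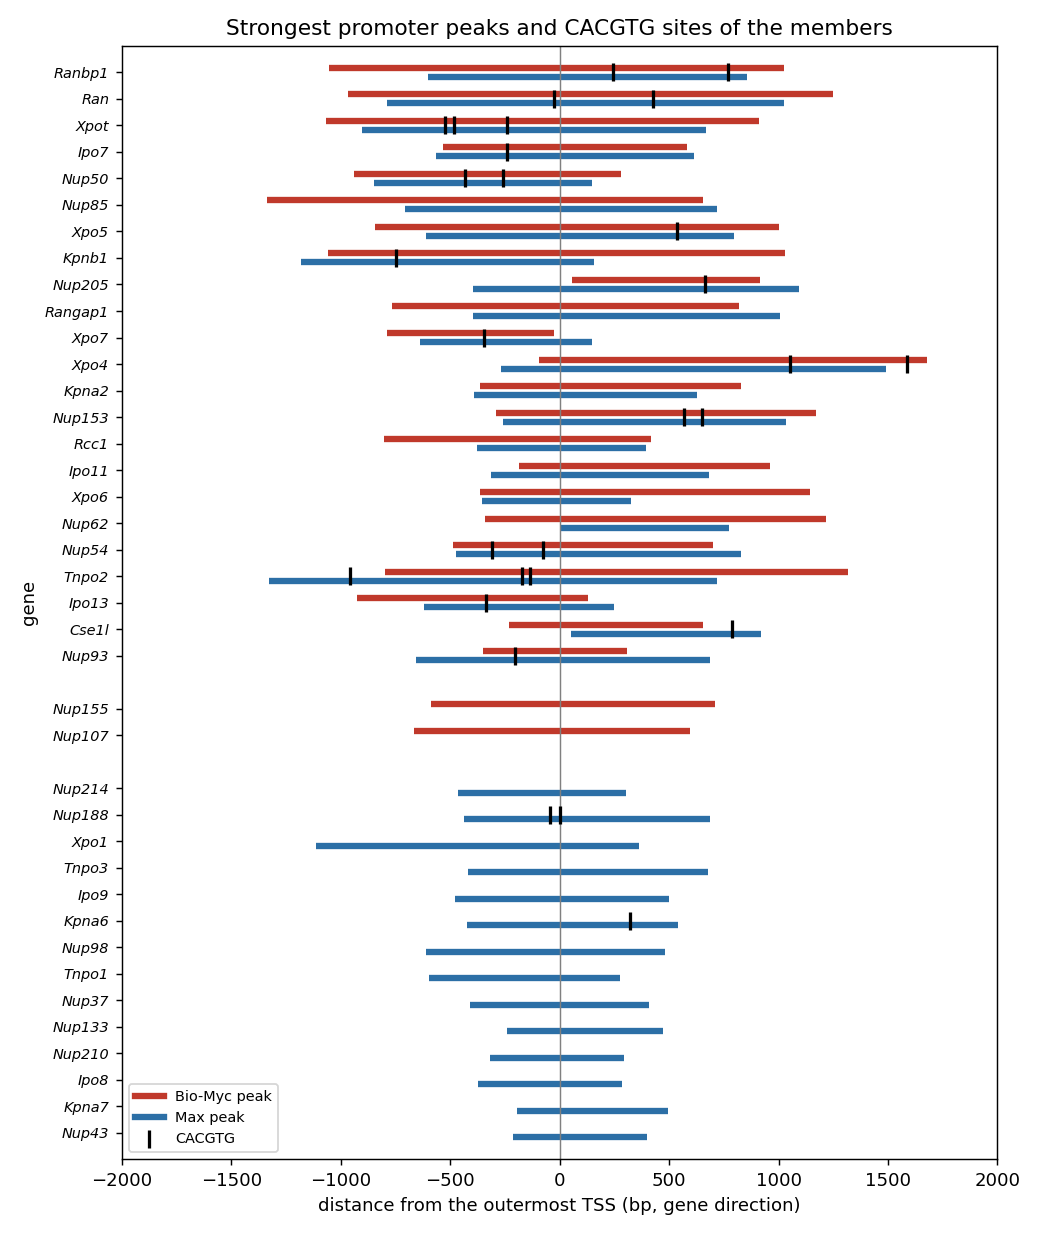
Extent of the strongest Bio-Myc peak (red bar) and Max peak (blue bar) of 39 members (y axis) against the distance from the outermost TSS (x axis, bp, in the direction of the gene), with black ticks for CACGTG under the peaks. Nup35 and Ipo4, whose peaks lie at other TSSs, are not drawn, and the red and blue bars overlap in each gene that has both.

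A CACGTG, which reads the same on both strands, was present in the strongest Bio-Myc peak of 15 of the 24 members with both peaks (62.5%, 42.7 to 78.8), against 52.5% of all protein-coding genes with both peaks, a share inside the interval of the members. The peak held 1 E-Box in 7 members, 2 in 7 and 3 in Xpot. Of members with a Max peak alone, 3 of 15 had a CACGTG under that peak (interval 7.05% to 45.2%), against 29.4%. Under the strongest Max peak of the members with both peaks it was present at 16 of 24 (66.7%, 46.7 to 82), against 51.2%. The intervals for the Max peaks of members with both and with Max alone did not overlap, and the difference was not tested. Whole peaks were searched, so that a wider peak gave more sequence, and the widths of these groups of peaks were not matched. In the 9 members with both peaks and no CACGTG under the Bio-Myc peak were Nup85, Rangap1, Rcc1, Kpna2, Ipo11, Nup35, Nup62, Xpo6 and Cse1l, of which Cse1l had a CACGTG under its Max peak. The strongest Max peak of all members, at Nup85, was therefore one without this sequence. With CACGCG on either strand counted as well, 21 of the 24 Bio-Myc peaks held a site (87.5%), against 81.2% of all protein-coding genes with both peaks.

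Of the 23 E-Boxes under peaks of both lists, in 15 genes, 10 were within 250 bp and 17 within 500 bp of the nearest TSS, and 15 were upstream of the gene, 7 in an intron and 1 in a 5′ UTR. Some E-Boxes came close together, and 3 genes had a pair under both peaks not more than 100 bp apart. They were picked out after their positions had been seen, and are shown because their spacing cannot be read from single sites. Capitals again mark the E-Boxes, on the strand of the gene (mm9).
Xpot, chr10:121063842-121063911, minus strand: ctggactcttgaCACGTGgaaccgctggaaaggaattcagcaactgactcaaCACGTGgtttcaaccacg
Nup153, chr13:46822550-46822662, minus strand: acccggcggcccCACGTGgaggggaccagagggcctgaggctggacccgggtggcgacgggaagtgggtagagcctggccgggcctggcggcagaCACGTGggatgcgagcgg
Tnpo2, chr8:87560625-87560693, plus strand: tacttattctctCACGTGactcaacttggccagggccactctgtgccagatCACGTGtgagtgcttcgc
The E-Boxes of a pair started 40 bp apart in Xpot, 83 bp in Nup153 and 39 bp in Tnpo2. For contrast, the sites of the 3 members with a Max peak alone that hold a CACGTG are given below, for Nup188 the site upstream of the TSS.
Nup188, chr2:30141858-30141887, plus strand: cacgcccaccatCACGTGgcggaagcccac
Ipo4, chr14:56254490-56254519, minus strand: tgtcggagtctcCACGTGccgatcctcccc
Kpna6, chr4:129349673-129349702, minus strand: ctgggctgtcccCACGTGgtggcctcgggt
They lay at -42 bp, 14 bp and 82 bp from the nearest TSS, so that an E-Box next to the TSS was also found at promoters with Max and no Bio-Myc peak.

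The bases next to the E-Box were compared with those of all 2152 sites under both kinds of peak. A T before or an A after the E-Box was found in 7 of 23 sites of the members (30.4%, 15.6 to 50.9), against 30.3%. G before and C after, GCACGTGC, was found in 4 (17.4%, 6.98 to 37.1), against 8.64%, and C before and G after, CCACGTGG, in 5 (21.7%, 9.66 to 41.9), against 14.8%. All 3 genome-wide shares lay inside the intervals of the members, which are wide with 23 sites. The last of these flanks is the one at Ranbp1, Ipo7 and Kpnb1 above.

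A CACGTG within 1 kb of the outermost TSS, whether or not a peak was there, was present at 24 of 50 members (48.0%), against 27.8% of all protein-coding genes, and at 24 of the 43 CpG-rich members (55.8%, 41.1 to 69.6), against 33.9%. With a Bio-Myc peak it was present at 57.7% of the members, against 49.8% of all such protein-coding genes, and without one at 37.5%, against 24.1%. Among transport factors it was present at 10 of 16 with a Bio-Myc peak and 3 of 13 without. Among nucleoporins it was present at 5 of 10 with a Bio-Myc peak and 6 of 11 without. These differences were not tested.

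Some of these promoters are shared with a neighbouring gene, and a peak there cannot be assigned to either. The Bio-Myc peak also lay within 1 kb of a TSS of another protein-coding gene at 4 of 26 members (15.4%, against 28.8%) and the Max peak at 8 of 39 (20.5%, against 23.1%). The TSS of Ranbp1 is 33 bp from that of Trmt2a on the opposite strand, that of Xpo5 is 230 bp from Polh, that of Xpo7 is 579 bp from Dok2, and that of Nup62 is 266 bp from Atf5 and 5 bp from Il4i1. The strongest Bio-Myc peak of the members, at Ranbp1, is therefore also a peak of the Trmt2a promoter. With Max alone, Nup188 shares its promoter with Dolk, Nup98 with Pgap2, Nup37 with 4930547N16Rik and Kpna7 with Arpc1a. The TSS of Rcc1 is 28 bp from that of Snhg3, a noncoding gene on the same strand.

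A further 29 genes of the pore and of transport have symbols outside the rule. Among them, 11 carried a Bio-Myc peak (37.9%, 22.7 to 56.0), against 14.6% of all protein-coding genes. A Max peak was present at 21 (72.4%, 54.3 to 85.3), against 34.8%. All 11 with a Bio-Myc peak also had a Max peak (interval 74.1% to 100%), against 86.5%. Seh1l, a Y-complex subunit, led with scores of 383 for Bio-Myc and 613 for Max, followed by Nupl2 with 235 and 148. Ahctf1, which starts pore assembly on chromatin, had 177 and 400, Pom121 of the pore membrane 172 and 393, Tpr of the basket 169 and 236, and Ranbp2 of the cytoplasmic filaments 107 and 209. The highest of these Bio-Myc scores, 383 at Seh1l, lay between those of Nup85 (441) and Xpo5 (370), ranked 6 and 7 among the members. Genes with a Max peak alone included Nupl1 of the channel, with a score of 492, Nxf1, the main exporter of mRNA, with 118, and Aaas with 81.1. Neither peak was found at 8 genes, among them Sec13 of the Y-complex and the cofactor of mRNA export Nxt1. The intervals of these genes overlapped those of the 50 members for both factors. Nutf2, Ddx19a and Ddx19b, which had a Max peak, lie on chromosome 8.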

How the data were processed

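The authors sequenced 1 library each for the Bio-Myc, mock, Max and IgG ChIPs. Per the submitters' processing notes, CASAVA 1.8, Bowtie 0.12.7 and MACS 1.4.1 were used, on mm9. The deposited peak lists give each peak a score, which from its values is -10 log10 of the MACS p-value, with the authors' limit of 1e-08 as its lowest value, and the lists were not scaled to one another. Mock and IgG peaks were not analysed here.

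Peaks were set against the TSSs of GENCODE M1 (mm9) within 1 kb, with BED starts moved to 1-based positions, in Python 3.11.15 with pysam 0.24.0, numpy 2.4.6 and scipy 1.17.1. A peak needed at least 1 bp in the window. The strongest peak gave the score. CACGTG was searched in the mm9 sequence under the peaks. Shares carry 95% Wilson intervals. With 1 library per ChIP and no replicates there was no test and no p-value. The steps returned the known answers on 400 made-up genes in 5 of 5 checks.

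The members and lists were chosen with earlier results of these data known. Values are given for the highest Bio-Myc score of each role, the 10 highest Bio-Myc scores, members with Bio-Myc and no Max, members with neither, Bio-Myc scores under 100, and Ran, Ranbp1, Rangap1, Rcc1, Kpnb1, Xpo1 and Cse1l, and the other members are named by role. The alternatives changed the promoter window, the TSSs, the score limit, the size of the Max list, chromosome 8, the overlap of the lists and the E-Box search. The CpG-rich comparison and the paired E-Boxes were chosen after the data were seen.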

Additional observations from a re-analysis of the deposited data

How the results depend on the processing

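Of 43 alternative values computed for the counts of members, 40 stayed within 1.5 times the reported count. The number of members with a Bio-Myc peak ranged from 22 to 27, and the number with both peaks from 18 to 25. The number with a Max peak ranged from 25 to 40. The lowest value, 25 in place of 39, came from the Max list limited to its 3962 highest scores, the size of the Bio-Myc list. Of all protein-coding genes, 15.5% had a Max peak in that list, so that the share fell there too. With scores of at least 150, 22 members had a Bio-Myc peak, against 6.85% of all protein-coding genes, and 30 a Max peak, against 22.6%. With the outermost TSS alone, 25 had a Bio-Myc peak, the peaks of Nup35 being lost. The number of members with both peaks and a CACGTG fell from 15 to 9 in the central 500 bp of the Bio-Myc peak (37.5%, against 36.2% of all genes). In the central 200 bp it fell to 3 (12.5%, against 18.6%). A part of a peak cannot hold more sites than the whole, so this count could not rise. Over whole peaks the shares were 62.5% and 52.5%, so the members' share went from above that of all genes to below it. The change was not tested. Leaving out the second Ipo11 entry, an alternative added after seeing the data, could not change the counts of peaks, because that entry has none. A search of every Bio-Myc peak in the window could not change the CACGTG count either, since no member had more than 1. Both of these alternatives are among the 43. No paired analysis was possible because each ChIP had 1 library. No library could be left out for the same reason. Weak peaks, such as the Bio-Myc peaks of Nup93 and Nup107 and the Max peak of Nup43, are near the limit of the lists, and a gene without a peak at this unknown depth is not shown to be unbound.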
